A study of Mus musculus with 9 samples.

Results

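The 10 genes described here carry out MHC class I presentation: the heavy chains H2-K1, H2-D1 and H2-T23, the light chain B2m, the peptide transporter subunits Tap1 and Tap2, the loading factor Tapbp, the immunoproteasome subunits Psmb8 and Psmb9, and the transactivator Nlrc5. They were taken by name from a fixed list, and all 10 were found among the 26388 genes of the deposited tables. They were measured in 9 livers, 1 from each of 9 male mice of the C57BL/6 strain, 8 weeks old. The method was Drop-seq, in which droplets join a cell to a bead with its own barcode and each captured transcript is tallied once by a unique molecular identifier (UMI). Of the 9 mice, 3 had received AAVrh.10Null, 3 AAVrh.10mCherry and 3 PBS, all by intravenous injection, and no genetic change is labelled in any group. AAVrh.10 is a serotype of adeno-associated virus, and the mCherry vector is named for a red fluorescent protein. The labels give neither the dose nor the time from injection to collection, nor what the Null vector carries.

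MHC class I molecules display peptides from inside the cell to CD8 T cells and are made by almost all nucleated cells. Proteasomes cut proteins into peptides, and the transporter formed by Tap1 and Tap2 moves the peptides into the endoplasmic reticulum. There Tapbp (tapasin) helps them bind to a heavy chain paired with B2m. H2-K1 and H2-D1 are classical class I genes of the mouse, and H2-T23 encodes the non-classical molecule Qa-1, a ligand of inhibitory receptors on natural killer cells. Psmb8 and Psmb9 replace catalytic subunits of the standard proteasome, and Nlrc5 is a transcriptional activator of class I genes. Hepatocytes are known for low class I display compared with endothelial cells and macrophages of the liver.

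In the mm10 (GRCm38) assembly with GENCODE M21 annotation, 8 of the 10 genes lie on chromosome 17 and all 10 are annotated as protein-coding. H2-K1 spans chr17:33996017-34000347, H2-D1 chr17:35262730-35267499, H2-T23 chr17:36029773-36032855 and Tapbp chr17:33915899-33929292. Psmb9 (chr17:34181987-34187764), Tap1 (chr17:34187553-34197225), Psmb8 (chr17:34197721-34201454) and Tap2 (chr17:34203527-34216321) are neighbours within 34335 bases. B2m is at chr2:122147686-122153083 and Nlrc5 at chr8:94434356-94527272. Psmb9 and Tap1 overlap on opposite strands, with annotated starts 211 bases apart, and an annotated gene on the other strand overlaps B2m, H2-T23, Tap2, Tapbp, Psmb8 and Nlrc5. Whether counting used strand is not given in the sources used here, so reads of such partners may be mixed. On the same strand, Zbtb22 overlaps Tapbp and Mir7072 overlaps Nlrc5, and reads there could be mixed even if counting used strand. H2-K1, H2-D1 and the H2-Q genes are near-identical in places, and reads could have been split among them by the counting, so their levels are uncertain to that extent.

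RefSeq promoter windows (GRCm38.p6, 250 bases before to 50 after the start) were matched for 8 of the 10 genes. Tap2 and Nlrc5 had none, and of 2 windows for H2-K1 the first is shown and counted. The windows of H2-D1, H2-K1 and B2m are shown because H2-D1 differed more between liver cell classes than H2-K1 and B2m in the results that follow. No link between the windows and these levels was tested. Capitals mark 4 motifs searched on both strands: GAAANNGAA (a core of the interferon response element), GGGATTNCC (an NF-kB site), TGACGC (the X2 box core) and ATTGG (the Y box core).
H2-D1, chr17:35262844-35263143, plus strand: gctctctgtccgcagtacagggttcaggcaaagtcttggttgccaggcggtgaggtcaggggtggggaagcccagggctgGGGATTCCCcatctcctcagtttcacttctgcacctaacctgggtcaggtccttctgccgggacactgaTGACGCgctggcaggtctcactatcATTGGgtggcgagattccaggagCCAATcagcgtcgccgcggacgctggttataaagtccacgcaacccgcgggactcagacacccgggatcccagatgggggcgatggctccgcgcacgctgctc
H2-K1, chr17:34000298-34000597, minus strand: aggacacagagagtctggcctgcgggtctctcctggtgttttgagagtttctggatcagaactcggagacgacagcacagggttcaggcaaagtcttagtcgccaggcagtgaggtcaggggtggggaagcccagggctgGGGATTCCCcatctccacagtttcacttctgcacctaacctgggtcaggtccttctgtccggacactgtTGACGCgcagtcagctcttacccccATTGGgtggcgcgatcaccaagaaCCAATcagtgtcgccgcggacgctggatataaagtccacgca
B2m, chr2:122147437-122147736, plus strand: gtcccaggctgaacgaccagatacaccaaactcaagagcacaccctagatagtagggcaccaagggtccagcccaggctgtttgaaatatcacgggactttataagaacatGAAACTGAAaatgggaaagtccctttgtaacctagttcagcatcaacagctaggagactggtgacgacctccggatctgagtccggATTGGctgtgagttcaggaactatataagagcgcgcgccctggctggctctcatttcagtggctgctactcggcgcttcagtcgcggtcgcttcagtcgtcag

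H2-D1 and H2-K1 held the same 3 motifs with the same spacing. The NF-kB match began 69 bases before the X2 box match in both genes, and the X2 box match 25 bases before the first Y box match. Counted from the RefSeq start, the X2 box match began 101 bases upstream in H2-D1 and 41 bases upstream in H2-K1. It began 55 bases upstream in the second H2-K1 window. These distances depend on where the start is annotated, so they do not show a different layout of the 2 promoters. Among the 8 genes, the NF-kB match and the X2 box match were each found in 2, H2-K1 and H2-D1, while 0.938% and 7.4% of all 32851 windows in the table held them. The interferon response element match was found in 2 of 8 genes, B2m and H2-T23, against 8.56% of all windows, and the Y box match in 7 of 8 against 37.4%. Psmb9 and Tap1 shared 1 Y box match at chr17:34187334-34187338, which lies in both windows, and Psmb8 held none of the 4 motifs. A match says only that these letters are in the window. A missing match says only that these exact letters are not. Variant forms of the elements were not searched, so a gene without a match may still hold such an element.

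A barcode was retained with at least 200 genes, which left 44898 of 48000 barcodes. The libraries of 8 livers held 4234127 to 11220147 UMIs. The library labelled mouse 7 (PBS) stood apart, with 550 of 3600 barcodes retained and 291338 UMIs, so that a count of 3 UMIs, taken as the floor, corresponded to 10.3 counts per 1000000 UMIs (CPM) there. The nuclear RNA Malat1 was highest in mouse 2 (AAVrh.10Null), mouse 7 (PBS) and mouse 8 (AAVrh.10Null), and 7 and 20 barcodes of mice 2 and 8 ended in an undetermined base, against 174 in mouse 7 and 1056 to 1735 in the others. A split along that last base leaves mouse 5 as the lone AAVrh.10Null liver beside the other libraries, so values without mice 2 and 8 are given where they move a result. Alb, the albumin transcript of hepatocytes, was at 33730 to 47238 CPM in the 9 livers. The mitochondrial share of UMIs was 3.43% in mouse 4, 17.3% in mouse 8, 17.8% in mouse 6 and 6.27% to 10.2% in the others. The total under CPM includes these UMIs. The label check with the mCherry transcript gave 7979, 6150 and 1797 CPM in AAVrh.10mCherry mice 3, 6 and 9. It was 0, 22.7 and 0.149 CPM in AAVrh.10Null mice 2, 5 and 8, and 24.3, 0 and 0 CPM in PBS mice 1, 4 and 7. Counting intervals and floors cover counting error only, and 73 barcode sequences were shared, summed over the 36 pairs of libraries.

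Barcodes were placed in a cell class when they held at least 3 UMIs over at least 2 genes of a marker list. This gave 43464 hepatocyte, 645 endothelial and 223 macrophage marker-positive barcodes, and a liver entered a class with at least 20 of them. Macrophage ranges and tests therefore come from 6 livers, 2 per group (mice 2 and 8, 3 and 9, and 1 and 4), and the other classes from all 9. Barcode counts, class totals and levels given as pooled over the 9 livers also include the livers under that limit. The class totals were 298059 UMIs for macrophage, 754079 for endothelial and 51214333 for hepatocyte barcodes. Hepatocyte RNA was present throughout: the Alb level in a liver's macrophage barcodes was 38.8% to 68.8% of that in its hepatocyte barcodes, and in endothelial barcodes 42.9% to 81.5%. Whether free RNA or doublets carried it was not tested, and the class levels below include it.

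The clearest pattern was between cell classes, and it separated the 10 genes. H2-D1, H2-T23, Psmb8, Psmb9 and Tapbp were higher in endothelial and in macrophage than in hepatocyte marker-positive barcodes, whereas B2m and H2-K1 differed less, in a direction that turned when no low-count filter was used. Levels are CPM of the UMIs of a class in a liver, and log2 changes come from edgeR's quasi-likelihood test on the sums, with the liver as a block, TMM normalization and Benjamini-Hochberg adjustment over the 2118 genes that passed the low-count filter. The filter kept 7 of the 10 genes and removed Tap1, Tap2 and Nlrc5. It keeps a gene that is high enough in as many sums as the smallest class has, from whichever class. Hepatocyte levels of Psmb8, Psmb9, Tapbp and, but for mouse 7, H2-T23 fell short of it. These genes passed through macrophage and endothelial sums, where they are high. Their calls as higher, and the counts and medians below, are therefore partly fixed by the filter. The same limit applies to genes of other lists that were low in hepatocyte barcodes. Of the 7, 5 were called higher in endothelial barcodes at an adjusted p under 0.05, in a comparison where 60.2% of all genes were called, 26.8% higher and 33.4% lower. Of the 7, 6 were called higher in macrophage barcodes, where 54.5% of all genes were called and 26.2% higher. Without mouse 1 the endothelial count was 3, with Psmb9 and Tapbp below the filter. With no low-count filter H2-D1 was still called in both comparisons, while H2-T23, Psmb8, Psmb9 and Tapbp stayed above 0 in endothelial barcodes with adjusted p of 0.0780 to 0.273, and Tapbp in macrophage barcodes with adjusted p of 0.250. The median log2 change of the 7 was 1.08 for endothelial and 1.71 for macrophage against hepatocyte barcodes, and the medians of all genes were -0.11 and -0.05.

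**Figure D1:**
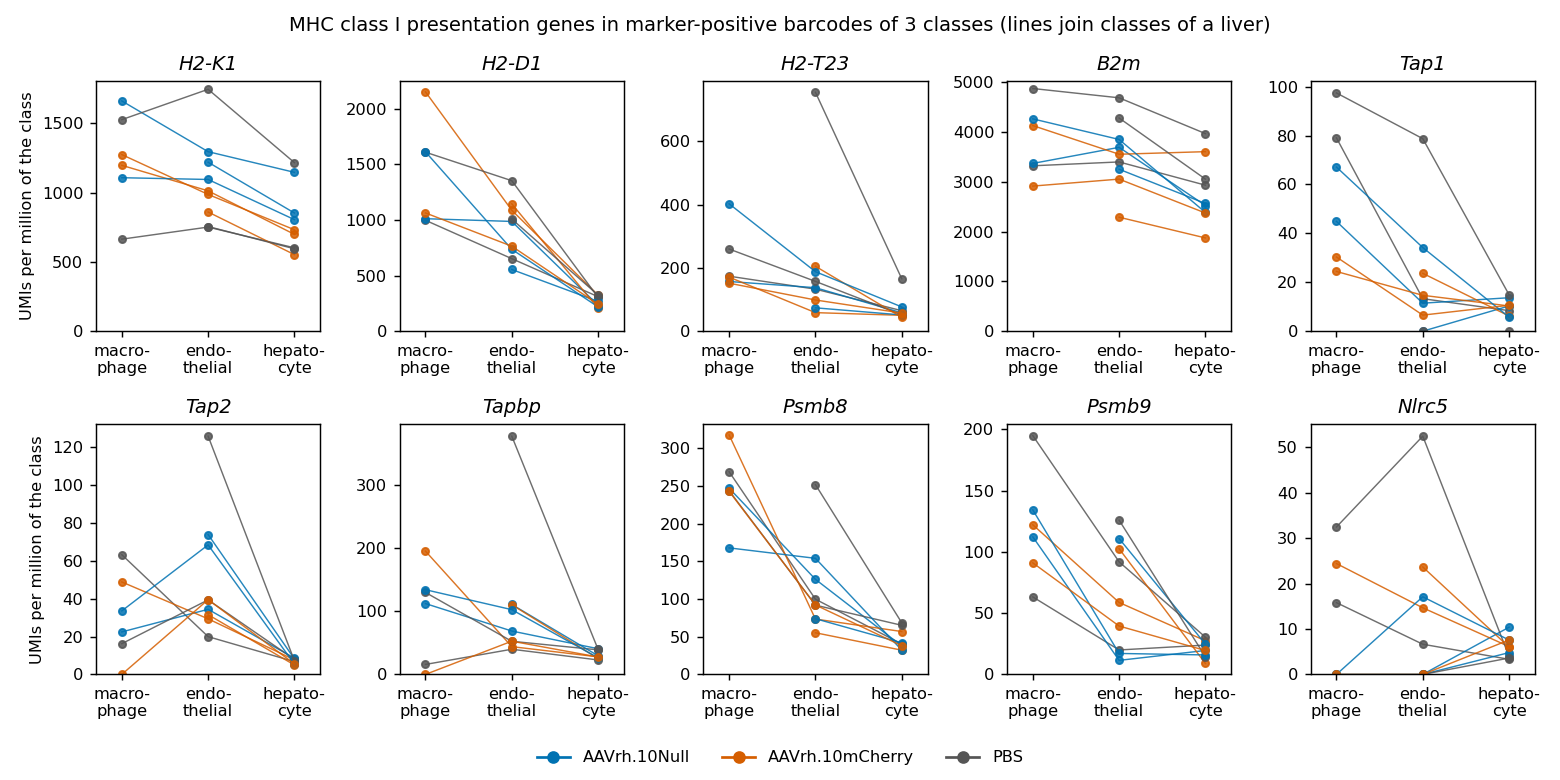
Level of each of the 10 genes (y axes, CPM over the UMIs of the class) in macrophage, endothelial and hepatocyte marker-positive barcodes (x axes); a point is a class in 1 liver with at least 20 barcodes, a line joins the classes of a liver, and colours mark AAVrh.10Null, AAVrh.10mCherry and PBS. H2-D1 lies between 996 and 2150 in macrophage, 554 and 1352 in endothelial and 205 and 324 in hepatocyte barcodes with no overlap with the last, whereas the B2m ranges of the 3 classes overlap.

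Among the heavy chains, H2-D1 stood out. Its level was 996 to 2150 CPM (median 1335, 6 livers) in macrophage, 554 to 1352 CPM (median 986, 9 livers) in endothelial and 205 to 324 CPM (median 267, 9 livers) in hepatocyte barcodes. No liver's macrophage or endothelial value reached down into the hepatocyte range. Its log2 change was 2.17 (SE 0.15, adjusted p = 2.36e-22) for macrophage and 1.57 (SE 0.13, adjusted p = 4.57e-19) for endothelial against hepatocyte barcodes, with edgeR. H2-T23 was 152 to 403 CPM (median 172.5) in macrophage, 58.7 to 755 CPM (median 138) in endothelial and 43.9 to 166 CPM (median 57.4) in hepatocyte barcodes. The highest endothelial and the highest hepatocyte value both came from mouse 7, and H2-T23 was above the same liver's hepatocyte level in 6 of 6 and 9 of 9 livers. Its log2 changes were 1.71 (SE 0.26) and 1.08 (SE 0.20), with adjusted p of 4.38e-08 and 2.12e-06. The low-count filter partly fixed these calls of H2-T23, and without it the endothelial value was 0.52 (adjusted p = 0.0780, edgeR).

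H2-K1 showed a smaller difference. It was 664 to 1662 CPM (median 1236) in macrophage, 751 to 1746 CPM (median 1013) in endothelial and 553 to 1216 CPM (median 732) in hepatocyte barcodes, and these ranges overlapped. Within a liver the order held: H2-K1 was above the hepatocyte level in 6 of 6 macrophage and 9 of 9 endothelial sums on the CPM scale. The log2 change on the TMM scale was 0.35 (SE 0.13, adjusted p = 0.0241, edgeR) for macrophage and 0.22 (SE 0.11, adjusted p = 0.0770, edgeR) for endothelial against hepatocyte barcodes. The endothelial value was called without mouse 5, 6, 7 or 9, at 0.29 to 0.34. The macrophage call was lost without the liver block (adjusted p = 0.106), under both other marker rules (adjusted p = 0.0819 and 0.639) and when mouse 2, 3, 4 or 8 was left out (adjusted p 0.0604 to 0.306), and its direction turned to -0.46 without the low-count filter, a setting in which the median of all genes was -0.77.

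B2m, the light chain that every heavy chain needs, differed least. Its level was 2913 to 4872 CPM (median 3748) in macrophage, 2288 to 4685 CPM (median 3552) in endothelial and 1873 to 3967 CPM (median 2564) in hepatocyte barcodes. The 3 ranges overlapped, although B2m was above the same liver's hepatocyte level in 6 of 6 macrophage and 8 of 9 endothelial sums. For B2m the log2 change was 0.19 (95% interval -0.06 to 0.43, adjusted p = 0.195) for macrophage and 0.10 (95% interval -0.11 to 0.30, adjusted p = 0.427) for endothelial barcodes, with edgeR. Without mouse 6 the B2m value was 0.29 for macrophage and 0.26 for endothelial barcodes, and without mouse 7 it was 0.21 for endothelial barcodes, each called. Without mouse 8 or mouse 2 the endothelial value was at most 0.02. The direction of B2m and H2-K1 depended on the scale: with total UMIs alone, which moved the median of all genes to 0.11 for macrophage and 0.10 for endothelial barcodes, both passed the test as higher, and without the low-count filter both passed as lower in both comparisons. For endothelial barcodes, total UMIs alone also moved the calls over all genes to 748 higher and 489 lower, from 567 higher and 707 lower. DESeq2 called all 7 genes higher in both comparisons.

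The ratio of H2-D1 to H2-K1 does not depend on scaling, and was chosen after its values were seen. There were 0.608 to 1.80 H2-D1 UMIs per H2-K1 UMI in macrophage barcodes (median 1.25, 6 livers), 0.455 to 1.33 in endothelial barcodes (median 0.774, 9 livers) and 0.203 to 0.546 in hepatocyte barcodes (median 0.331, 9 livers). Within a liver it was higher than in hepatocyte barcodes in 6 of 6 macrophage sums, with a mean log2 difference of 1.82 ± 0.41 (SD, n = 6, exact sign-flip permutation test, two-sided, p = 0.0312, the smallest p that 6 livers allow). In endothelial barcodes the ratio was higher in 9 of 9 livers, with a mean log2 difference of 1.30 ± 0.46 (SD, n = 9, exact sign-flip permutation test, two-sided, p = 0.00391, the smallest p that 9 livers allow). Without mice 2, 7 and 8 the mean log2 differences were 1.73 (4 livers) and 1.20 (6 livers). H2-Q10, a class I gene known for its expression in liver and its secreted product, went the other way. Its level pooled over the 9 livers was 1557 CPM in macrophage, 1756 CPM in endothelial and 2432 CPM in hepatocyte barcodes, with log2 changes of -1.01 (adjusted p = 9.96e-09) and -0.71 (adjusted p = 2.08e-07) by edgeR.

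**Figure D2:**
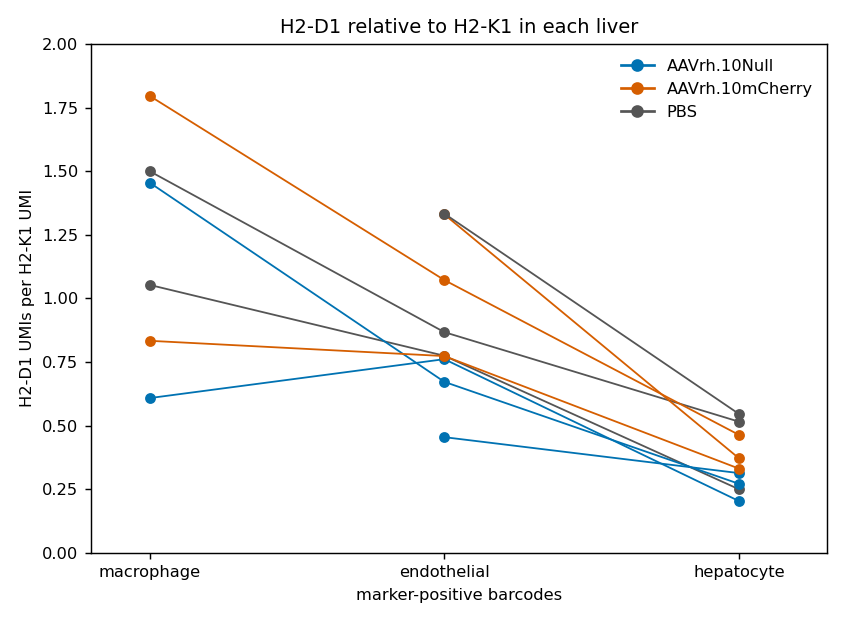
H2-D1 UMIs per H2-K1 UMI (y axis) in macrophage, endothelial and hepatocyte marker-positive barcodes (x axis); a point is a class in 1 liver with at least 20 barcodes, a line joins the classes of a liver, and colours mark AAVrh.10Null, AAVrh.10mCherry and PBS. The 9 hepatocyte values lie between 0.203 and 0.546, and each liver's macrophage and endothelial points lie above its hepatocyte point.

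The immunoproteasome subunits Psmb8 and Psmb9 were higher in macrophage and in endothelial barcodes, in calls that the low-count filter partly fixed. Without that filter neither was called in endothelial barcodes, at 0.44 (adjusted p = 0.273) and 0.64 (adjusted p = 0.160) by edgeR. Psmb8 was 168 to 317.5 CPM (median 245) in macrophage, 55.2 to 252 CPM (median 92.1) in endothelial and 32.1 to 68.5 CPM (median 40.4) in hepatocyte barcodes. The macrophage values lay above every hepatocyte value. For Psmb8 the log2 change was 2.31 (SE 0.25, adjusted p = 1.16e-12) for macrophage and 0.99 (SE 0.23, adjusted p = 0.000128) for endothelial against hepatocyte barcodes, with edgeR. Psmb9 was 63.2 to 195 CPM (median 117) in macrophage, 11.5 to 126 CPM (median 58.7) in endothelial and 8.91 to 30.4 CPM (median 19.5) in hepatocyte barcodes, with log2 changes of 2.29 (SE 0.40) and 1.18 (SE 0.34). The endothelial and hepatocyte ranges of Psmb9 overlapped, and a single endothelial sum held 1 to 13 Psmb9 UMIs.

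Other proteasome genes from a fixed list were compared beside them. The third immunoproteasome subunit, Psmb10, rose by 1.50 (adjusted p = 0.000109) in macrophage and 1.02 (adjusted p = 0.000331) in endothelial barcodes on the log2 scale, by edgeR. Psme2, a subunit of the interferon-inducible proteasome activator, rose by 0.85 in macrophage barcodes (adjusted p = 0.000566, and 0.0516 without mouse 4) and had a log2 change of 0.17 in endothelial barcodes (adjusted p = 0.386). Of the 3 genes on that list, 3 were called higher in macrophage and 1 in endothelial barcodes. Without the low-count filter Psmb10 was not called in either (adjusted p = 0.187 and 0.250), nor was Psme2. The standard catalytic subunit Psmb6, the only 1 of 3 such subunits past the filter, had log2 changes of -0.09 in both (adjusted p = 0.744 and 0.646), and both turned positive with total UMIs alone. Without the low-count filter Psmb6 was called lower in both, at -0.88 (adjusted p = 0.00261) and -0.64 (adjusted p = 0.00195).

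Of the transport and loading genes, Tapbp passed the filter and was higher in both classes, in calls that the filter partly fixed. Without the filter Tapbp was called in neither, at 0.73 in macrophage (adjusted p = 0.250) and 0.54 in endothelial barcodes (adjusted p = 0.196) by edgeR. Tapbp was 0 to 195 CPM (median 121) in macrophage, 39.9 to 378 CPM (median 68.8) in endothelial and 22.9 to 40.7 CPM (median 27.8) in hepatocyte barcodes, with 0 to 8 UMIs in a macrophage sum. It was above the same liver's hepatocyte level in 4 of 6 macrophage and 9 of 9 endothelial sums, and the log2 changes were 1.52 (SE 0.40, adjusted p = 0.000889) and 1.10 (SE 0.29, adjusted p = 0.000857) by edgeR. Tap1, Tap2 and Nlrc5 were too sparse to test, and their levels pooled over the 9 livers carry exact 95% Poisson intervals. Tap1 was 63.7 CPM (38.4 to 99.5, 19 UMIs) in macrophage, 21.2 CPM (12.1 to 34.5, 16 UMIs) in endothelial and 9.74 CPM (8.91 to 10.6, 499 UMIs) in hepatocyte barcodes. Tap2 was 33.6 CPM (16.1 to 61.7, 10 UMIs), 37.1 CPM (24.7 to 53.7, 28 UMIs) and 6.76 CPM (6.06 to 7.51, 346 UMIs) in the same order. The pooled macrophage and endothelial intervals of both genes, which cover counting error only, lay above those of hepatocyte barcodes. By liver, Tap1 was above the hepatocyte level in 6 of 6 macrophage and 5 of 9 endothelial sums and Tap2 in 5 of 6 and 9 of 9. Nlrc5 rested on 4 macrophage and 10 endothelial UMIs, at 13.4 CPM (3.66 to 34.4) and 13.3 CPM (6.36 to 24.4), against 6.07 CPM (5.42 to 6.79) in hepatocyte barcodes, and the intervals overlapped.

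Of the 10 other genes of peptide loading and trimming on the list, 4 passed the filter and the rest were not tested. Pdia3, Canx and Lap3, those with the smallest p, changed less in size than Tapbp. Pdia3, a partner of tapasin in the loading complex, rose by 0.69 in macrophage (adjusted p = 0.000137) and 0.50 in endothelial barcodes (adjusted p = 0.000235) on the log2 scale by edgeR, and turned to -0.11 and -0.06 without the low-count filter. Its endothelial call was lost without the liver block (adjusted p = 0.0753) and its macrophage call under the stricter marker rule (adjusted p = 0.0854). Canx (calnexin, a chaperone of new heavy chains) rose by 0.40 in macrophage barcodes (adjusted p = 0.0201) and was at -0.41 without the filter; that call was lost without mouse 2, 3, 4 or 8 (adjusted p 0.0528 to 0.216). Lap3, an aminopeptidase, fell by 0.65 in endothelial barcodes (adjusted p = 0.000652, and 0.0857 with 2 UMIs over 2 markers, edgeR). Of the 12 class I transcription factors only Irf2 passed the filter, at 1.41 in macrophage (adjusted p = 2.15e-05, and 0.191 without the filter) and 0.30 in endothelial barcodes (adjusted p = 0.261). Of 12 interferon-gamma-induced genes outside the MHC only Iigp1, an immunity-related GTPase, passed it, at -0.30 and -0.29 with adjusted p of 0.147 and 0.0568. Iigp1 was called lower without the filter (-1.10, adjusted p = 3.14e-06, and -0.85, adjusted p = 2.18e-06), in macrophage barcodes with 5 UMIs over 3 markers (-0.94, adjusted p = 0.00983), and in endothelial barcodes without mouse 2 (-0.38, adjusted p = 0.0335) or mouse 4 (-0.37, adjusted p = 0.0378).

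MHC class II genes, which antigen-presenting cells use for extracellular peptides, separated the classes. All 5 that passed the filter were higher in macrophage barcodes, with Cd74 at a log2 change of 6.92 (adjusted p = 1.37e-46) and H2-Aa at 6.83 (adjusted p = 1.50e-42), by edgeR. The 7 listed genes together were at 43.9 to 300 CPM in whole livers. Those that passed did so through the macrophage sums, where they are high, so the filter fixed that count. In endothelial barcodes 0 of the 5 were higher and 1, Cd74, was lower, at -2.21 (adjusted p = 0.00442), a call lost without the liver block and with 2 other barcode rules (adjusted p 0.0693 to 0.151), with H2-Ab1 at -1.14 (adjusted p = 0.131). H2-Ab1 was called lower without the filter (-1.70, adjusted p = 0.0162), with 5 UMIs over 3 markers (-1.71, adjusted p = 0.0191) and without mouse 9 (-1.90, adjusted p = 0.0358). All 8 tested macrophage markers and all 10 endothelial markers were higher in their own class, which the rule for placing barcodes fixes.

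Macrophage and endothelial barcodes were also compared with each other. Of the 7 genes, 2 were called higher in macrophage barcodes, in a comparison where 18.8% of all genes were called, 10.8% higher and 8.03% lower. Psmb8 had a log2 change of 1.32 (SE 0.29, adjusted p = 0.000137) and H2-D1 of 0.61 (SE 0.16, adjusted p = 0.00171), with edgeR. The call of H2-D1 was lost without the low-count filter (0.38, adjusted p = 0.369), without mouse 3 (0.43, adjusted p = 0.0864) and with a marker rule of at least 5 UMIs over 3 genes (0.54, adjusted p = 0.0738). The other 5 missed the threshold, with H2-T23 at 0.63 (adjusted p = 0.117), Psmb9 at 1.11 (adjusted p = 0.0703), Tapbp at 0.43 (adjusted p = 0.583), H2-K1 at 0.13 (adjusted p = 0.621) and B2m at 0.09 (adjusted p = 0.721).

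The design sets each vector against PBS and the vectors against each other, and for the class I genes no treatment difference passed the test. In whole-liver sums, 0 of 10 genes were called for AAVrh.10Null against PBS, where 0.00883% of 11321 genes were called. The same count was 0 of 10 for AAVrh.10mCherry against PBS, where 0% were called, and 0 of 10 for AAVrh.10mCherry against AAVrh.10Null, where 0.0265% were called. With DESeq2 the count was also 0 in each, with no adjusted p given to Nlrc5 in the first. At an unadjusted p under 0.05, edgeR marked 3 (H2-D1, Psmb8 and Nlrc5), 1 (H2-T23) and 0 of the 10, while 12.9%, 6.57% and 7.3% of all genes passed that mark. Most values nevertheless lay below 0: 8 of 10 with a median log2 change of -0.35 for AAVrh.10Null against PBS, and 9 of 10 with a median of -0.44 for AAVrh.10mCherry against PBS, where the medians of all genes were -0.01 and 0.02. With total UMIs alone the members' medians were -0.30 and -0.32 and those of all genes 0.02 and 0.16. Both comparisons share the 3 PBS livers.

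**Figure D3:**
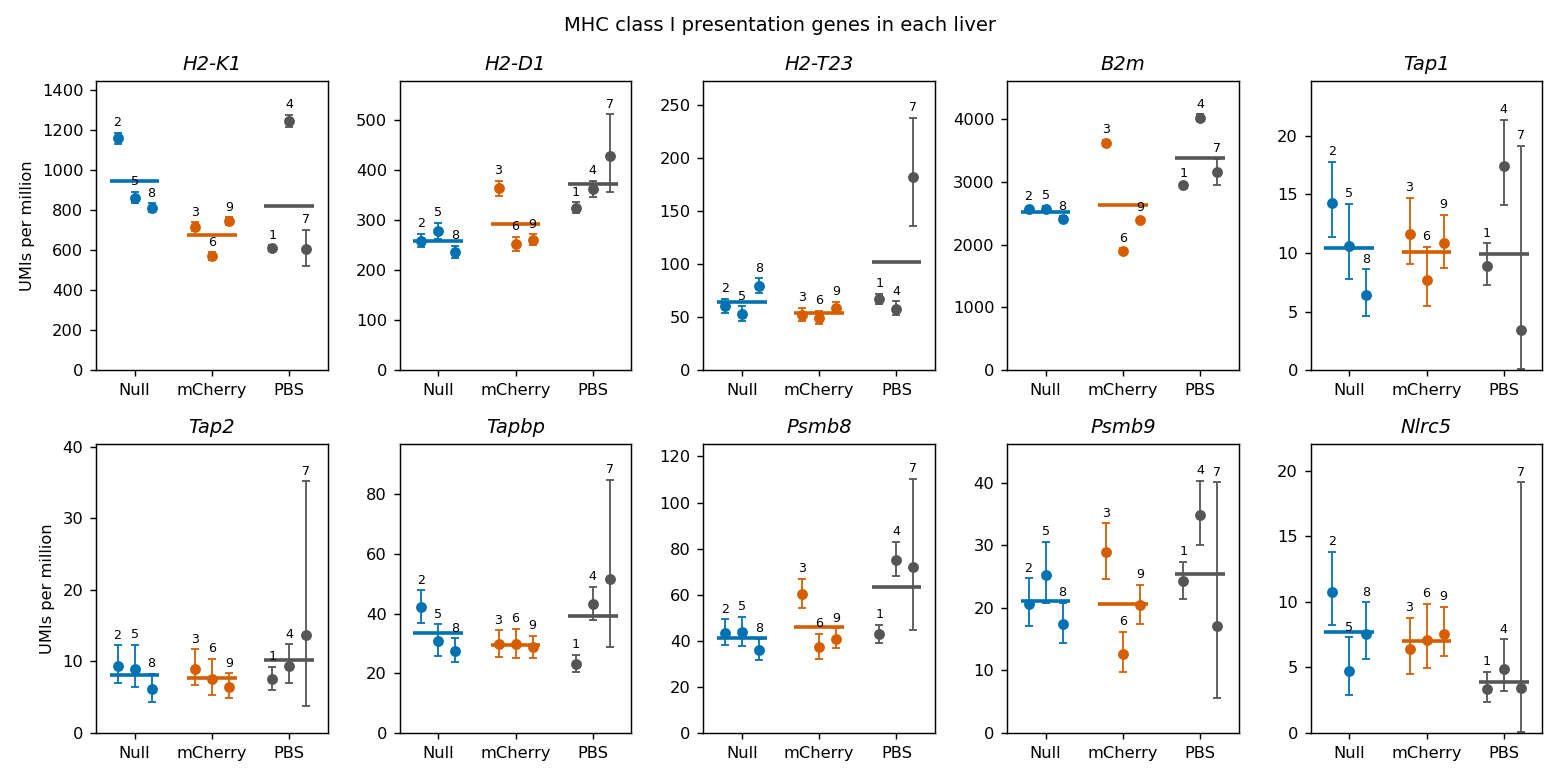
Level of each of the 10 genes (y axes, CPM over all UMIs of a liver) in the AAVrh.10Null, AAVrh.10mCherry and PBS groups (x axes); a point is 1 liver with its mouse number, the whisker is the exact 95% Poisson interval and the horizontal bar the group mean. The 3 AAVrh.10Null livers lie below the 3 PBS livers for H2-D1 and B2m, and the intervals of mouse 7 are the widest.

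Among the heavy chains, H2-D1 was 259, 278 and 236 CPM in AAVrh.10Null mice 2, 5 and 8, 363, 252 and 261 CPM in AAVrh.10mCherry mice 3, 6 and 9, and 325, 362 and 429 CPM in PBS mice 1, 4 and 7. The AAVrh.10Null livers all lay below the PBS livers, and the AAVrh.10mCherry livers overlapped with them. The log2 change was -0.54 (SE 0.24, adjusted p = 0.375) for AAVrh.10Null and -0.46 (SE 0.24, adjusted p = 0.717) for AAVrh.10mCherry against PBS, with edgeR. H2-K1 was 1159, 862 and 812 CPM in AAVrh.10Null livers, 717, 569 and 745 CPM in AAVrh.10mCherry livers and 608, 1245 and 604 CPM in PBS livers, in the same mouse order. The PBS livers covered the whole range of both vector groups but for mouse 6, while the AAVrh.10mCherry livers all lay below the AAVrh.10Null livers. Its log2 changes were 0.17 (SE 0.30) and -0.41 (SE 0.30) against PBS, with adjusted p of 0.843 and 0.748. Without mouse 7, the AAVrh.10Null value of H2-K1 was -0.01, so its direction rests on that library, and the AAVrh.10mCherry value was 0.04 without mouse 4.

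H2-T23 was 60.5, 52.7 and 79.7 CPM in AAVrh.10Null livers, 52.4, 49.3 and 58.9 CPM in AAVrh.10mCherry livers and 66.8, 57.9 and 182 CPM in PBS livers. The value of 182 CPM, in mouse 7, rested on 53 UMIs. The log2 change was -0.89 (SE 0.36, adjusted p = 0.717) for AAVrh.10mCherry against PBS with edgeR, and -0.39 without mouse 7. For AAVrh.10Null it was -0.51 (SE 0.36, adjusted p = 0.555), and 0.01 without mouse 7. B2m was 2562, 2574 and 2415 CPM in AAVrh.10Null livers, 3622, 1903 and 2394 CPM in AAVrh.10mCherry livers and 2946, 4024 and 3154 CPM in PBS livers. All AAVrh.10Null livers were below all PBS livers, and the AAVrh.10mCherry livers spread across both. The log2 changes were -0.44 (SE 0.29, adjusted p = 0.520) and -0.47 (SE 0.29, adjusted p = 0.725) against PBS, with edgeR.

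H2-D1 and B2m were the 2 genes of 10 whose AAVrh.10Null livers did not overlap the PBS livers on the lower side, where 6.99% of 10589 genes with at least 100 UMIs did so. In AAVrh.10mCherry against PBS, 0 of 10 genes lay wholly below (2.39% of all) and 1 of 10, Nlrc5, wholly above (14.7% of all). In AAVrh.10mCherry against AAVrh.10Null, 1 of 10, H2-K1, lay wholly below (4.5% of all).

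Among the proteasome subunits, Psmb8 was 43.6, 43.7 and 36.0 CPM in AAVrh.10Null livers, 60.2, 37.2 and 40.9 CPM in AAVrh.10mCherry livers and 43.0, 75.2 and 72.1 CPM in PBS livers. PBS mouse 1 lay within the vector groups and the other PBS livers above them. The log2 change was -0.61 (SE 0.27, adjusted p = 0.378) for AAVrh.10Null and -0.54 (SE 0.27, adjusted p = 0.717) for AAVrh.10mCherry against PBS, with edgeR. Psmb9 was 17.4 to 25.3 CPM in AAVrh.10Null, 12.7 to 28.8 CPM in AAVrh.10mCherry and 17.2 to 34.9 CPM in PBS livers, and its log2 changes were -0.43 and -0.55. The groups overlapped, and the log2 changes had adjusted p of 0.579 and 0.717. Without mouse 4 Psmb9 was at -0.15 and -0.28. Psme2 was at -0.43 and -0.28 and Psmb10 at -0.36 and -0.26, or -0.12 and -0.03 without mouse 4. The standard subunits Psmb7 and Psmb5 were at -0.66 and -0.63 for AAVrh.10Null, and Psmb5 and Psmb6 at -0.38 and -0.28 for AAVrh.10mCherry against PBS. Of the 3 genes of each list, 0 were called and 3 lay below 0 in both comparisons.

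The transport genes were low and their groups overlapped. Tap1 was 6.39 to 14.3 CPM in AAVrh.10Null, 7.72 to 11.6 CPM in AAVrh.10mCherry and 3.43 to 17.4 CPM in PBS livers, the lowest being 1 UMI in mouse 7, below the floor of that library. Tap2 was 6.09 to 9.35, 6.41 to 8.94 and 7.49 to 13.7 CPM, and Tapbp 27.5 to 42.2, 28.7 to 29.7 and 23.3 to 51.5 CPM, in the same order of groups. The log2 changes for AAVrh.10Null against PBS were -0.26 for Tap1, -0.16 for Tap2 and -0.14 for Tapbp, and those for AAVrh.10mCherry -0.39, -0.35 and -0.43. Their 95% intervals all included 0. Leaving out single livers turned the sign of Tap1 in both comparisons and that of Tapbp for AAVrh.10Null, each without PBS mouse 4.

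Nlrc5 was the 1 gene of the 10 that lay above PBS in both comparisons and was not called in either. It was 10.8, 4.72 and 7.58 CPM in AAVrh.10Null livers, 6.41, 7.12 and 7.57 CPM in AAVrh.10mCherry livers and 3.39, 4.88 and 3.43 CPM in PBS livers. Mouse 5 (AAVrh.10Null) fell within the PBS range, and mouse 7 (PBS) held 1 UMI. The log2 change was 0.90 (SE 0.34, adjusted p = 0.303) for AAVrh.10Null and 0.66 (SE 0.34, adjusted p = 0.717) for AAVrh.10mCherry against PBS, with edgeR. Without mice 2 and 8 the AAVrh.10Null value was 0.24, and with barcodes of at least 500 genes it was 1.41 (adjusted p = 0.120). In hepatocyte marker-positive barcodes alone, Nlrc5 was 10.4, 4.81 and 7.57 CPM in AAVrh.10Null, 6.13, 6.01 and 7.59 CPM in AAVrh.10mCherry and 3.33, 3.97 and 3.60 CPM in PBS livers, and the value of mouse 7 was 1 UMI, under the floor of 3. The log2 change there was 1.03 (SE 0.34, adjusted p = 0.210) for AAVrh.10Null against PBS by edgeR.

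**Figure D4:**
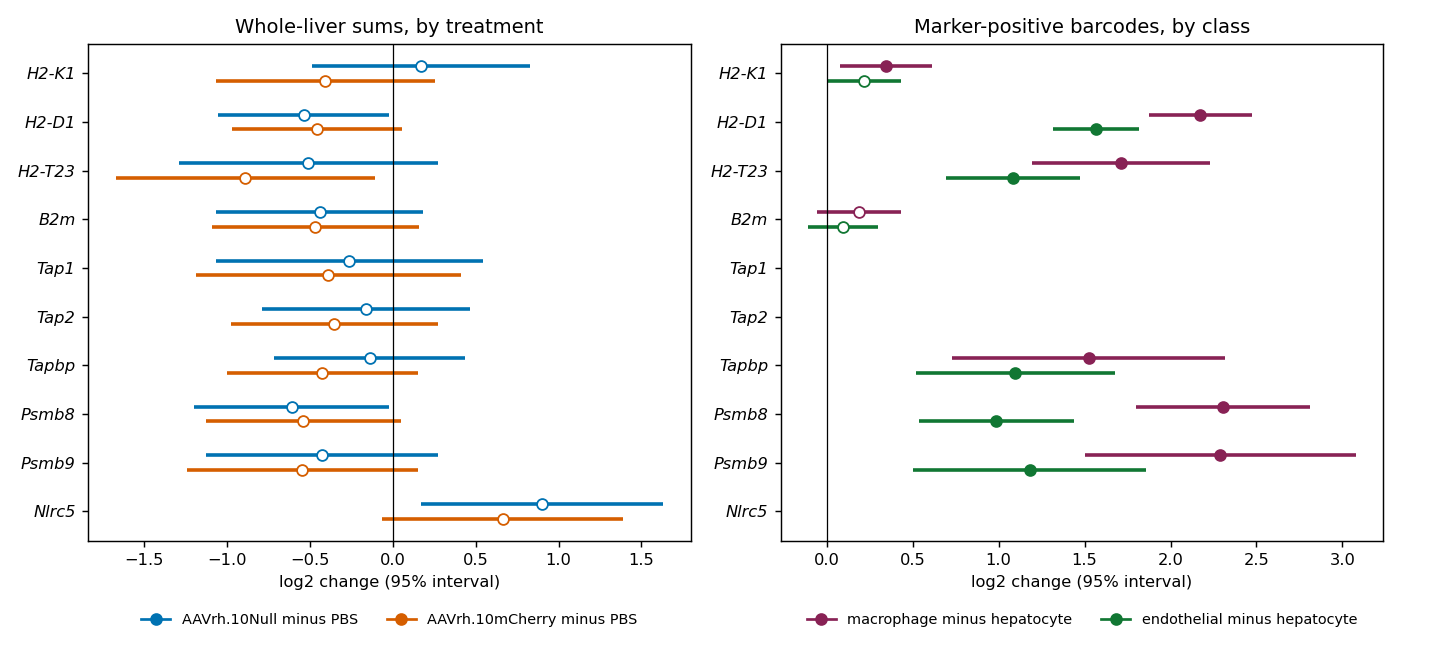
Left, log2 change of the 10 genes in whole-liver sums for AAVrh.10Null minus PBS and AAVrh.10mCherry minus PBS; right, log2 change of the 7 tested genes for macrophage minus hepatocyte and endothelial minus hepatocyte marker-positive barcodes. Points are edgeR estimates with 95% intervals and are filled at an adjusted p under 0.05; on the left 0 of 10 are filled in each comparison, and on the right 6 and 5 of 7 are, with B2m and H2-K1 nearest 0 and below it when no low-count filter was used.

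Markers of other cell types also varied between the livers. The summed level of the 10 macrophage markers was 84.5 to 164 CPM in AAVrh.10Null, 43.7 to 151 CPM in AAVrh.10mCherry and 54.9 to 263 CPM in PBS livers. That of the 10 T and NK cell markers was 11.1 to 28.4, 14.3 to 37.0 and 6.24 to 96.1 CPM, and that of the 10 endothelial markers 75.1 to 235, 138 to 419 and 105 to 388 CPM. Macrophage markers lay below 0 in 9 of 10 genes for AAVrh.10Null and 10 of 10 for AAVrh.10mCherry against PBS, and the 7 tested T and NK markers in 7 of 7 for both, with none called. Endothelial markers lay below 0 in 9 of 10 genes for AAVrh.10Null and above 0 in 9 of 10 for AAVrh.10mCherry against PBS. At least 7 of the 10 macrophage, 8 of the 10 T and NK and 9 of the 10 endothelial markers were detected in each liver. Their part in the class I values was not tested. In whole-liver sums, fewer cells of a type and less RNA per cell cannot be told apart.

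Within cell classes the treatment tests likewise gave no call. In hepatocyte marker-positive barcodes, 0 of 10 genes were called in each of the 3 treatment comparisons, where 0.00921%, 0% and 0.0276% of 10861 genes were called for AAVrh.10Null against PBS, AAVrh.10mCherry against PBS and AAVrh.10mCherry against AAVrh.10Null. In these barcodes Psmb8 was at -0.62 for AAVrh.10Null against PBS, and H2-T23 at -0.84 for AAVrh.10mCherry against PBS, or -0.37 without mouse 7. In endothelial barcodes 4 of the 10 genes were tested and 0 called, where 0%, 0.0663% and 0.0663% of 1509 genes were called. In macrophage barcodes 5 were tested and 0 called, where 0.356%, 0.119% and 0.237% of 843 genes were called. The difference between the vector effect in endothelial and in hepatocyte barcodes was tested for 8 of the 10 genes, and 0 were called for either vector, where 0% of 4305 genes were called. DESeq2 also called 0 of the tested genes within each class. At an unadjusted p under 0.05, edgeR marked 2, 2 and 0 of the 10 genes in hepatocyte barcodes, where 14.2%, 7.36% and 7.78% of all genes passed, and 0 in the endothelial, macrophage and interaction tests.

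Neighbouring gene lists gave the setting for the class I values in whole livers, and edgeR with the low-count filter called no gene of these lists. Without the filter it called Cd74 (-1.97, adjusted p = 8.98e-08), H2-Eb1 (-1.75, adjusted p = 1.47e-05), Gbp2 (-1.81, adjusted p = 0.0313) and Cxcl9 (-1.17, adjusted p = 0.0339) among the genes named below as lower for AAVrh.10Null against PBS. For AAVrh.10mCherry against PBS it then called Cd74 (-1.48, adjusted p = 0.000313) and H2-Eb1 (-1.16, adjusted p = 0.0285) as lower. Of the other class I heavy chains, 8 of 12 were tested, and H2-K2 (1.19, adjusted p = 0.308) and H2-Q4 (-0.70, adjusted p = 0.382) had the smallest p for AAVrh.10Null against PBS. For AAVrh.10mCherry they were H2-Q7 (-0.74, adjusted p = 0.717) and H2-K2 (0.54, adjusted p = 0.771). Single livers moved these values: without mouse 4, H2-Q4 was at -0.22 for AAVrh.10Null and H2-Q7 at -0.10 for AAVrh.10mCherry, and without mouse 6, H2-K2 was at 0.12 for AAVrh.10mCherry. MHC class II genes lay below 0 in 6 of 6 tested genes in both comparisons, with medians of -1.62 and -1.17. H2-Eb1 and Cd74 were at -1.76 and -2.01 for AAVrh.10Null (adjusted p = 0.200 and 0.227; DESeq2 called H2-Eb1 at 0.0489) and at -1.18 and -1.53 for AAVrh.10mCherry (adjusted p = 0.717 for both). Without mouse 4 H2-Eb1 was at -0.84 and -0.27, and without mouse 7 Cd74 was at -1.44 and -0.97. Of the 10 tested interferon-gamma-induced genes outside the MHC, 9 lay below 0 for AAVrh.10Null, led by Gbp2, a guanylate-binding protein (-1.81, adjusted p = 0.177), and the chemokine Cxcl9 (-1.18, adjusted p = 0.357). For AAVrh.10mCherry 6 of 10 did, with Irgm2 at 0.43 (adjusted p = 0.748) and Cxcl9 at -0.54 (adjusted p = 0.785). Without mouse 4 Cxcl9 was at 0.04 and 0.67.

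The class I transcription factors and the loading genes were divided. Of 12 transcription factors, 5 lay above 0 for AAVrh.10Null, with Nfkb1 at 0.86 (adjusted p = 0.227) and Rfx5, a subunit of the X box binding complex, at 0.83 (adjusted p = 0.423). For AAVrh.10mCherry 9 of 12 lay above 0, with Nfkb1 at 0.52 and Creb1 at 0.46 (adjusted p = 0.717 for both). Of the 10 loading and trimming genes, 6 and 5 lay above 0. Tpp2 and Uggt1 were at 0.55 and 0.54 for AAVrh.10Null (adjusted p = 0.338 and 0.340), and Tapbpl and Lnpep at -0.61 and 0.47 for AAVrh.10mCherry (adjusted p = 0.717 and 0.757).

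Across the 9 livers the members did not vary as 1 block. All genes of a liver share its library and depth, so correlations over the 9 livers are given as a description. The Pearson correlation of log2(CPM + 1) was 0.91 between H2-D1 and Psmb8 and 0.81 between H2-D1 and B2m, and 0.88 and 0.90 without mouse 7. H2-D1 and H2-K1 were at -0.12, and 0.15 without mouse 7. H2-K1 was nearest to Tap1, at 0.72, and to Tapbp without mouse 7, at 0.88. The whole-liver ratio of H2-D1 to H2-K1 UMIs was 0.224 to 0.323 in AAVrh.10Null, 0.350 to 0.507 in AAVrh.10mCherry and 0.290 to 0.710 in PBS livers. The 2 vector groups did not overlap in it, and the PBS livers overlapped both. Between the same vector groups, 12.6% of 10589 single genes lay wholly higher in AAVrh.10mCherry livers and 4.5% wholly lower. The ratio was chosen after its values were seen, and its difference between groups was not tested.

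The 5 genes of 11311 candidates most like the summed level of the 10 genes over the 9 livers were 9530068E07Rik (Pearson correlation 0.95), Chp2 (0.95), Ly6e (0.94), Med9 (0.93) and Ctsb (0.92). That sum follows mainly B2m, which held 148757 UMIs over the 9 livers, against 42841 for H2-K1 and 15610 for H2-D1, the next highest. Ly6e, which encodes a membrane protein of the Ly6 family, was 82.5 to 335 CPM, lowest in mouse 6 and highest in mouse 4, as was the class I sum at 2875 and 5873 CPM. Ctsb, the lysosomal protease cathepsin B, was 263 to 426 CPM with the same lowest and highest liver. Mouse 6 also had the highest mitochondrial share of UMIs (17.8%) and mouse 4 the lowest (3.43%). The part of that share in these levels was not tested. The correlations were 0.92 to 0.97 for the 5 genes without mouse 7.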

How the data were processed

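The 9 livers, 3 each for AAVrh.10Null, AAVrh.10mCherry and PBS, were sequenced on a HiSeq 2500 after droplet capture, per the labels' protocols. A readme among the deposited files gives bcl2fastq 2.19 for demultiplexing, while mm10 and Seurat come from the submitters' processing notes. Which aligner, counting tool, annotation and strand setting made the tables, and how barcodes were selected, is not given in the sources used here. Raw UMI counts per gene and barcode were deposited by the authors as whole numbers with no normalization.

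Counts of barcodes with at least 200 genes were summed per liver and per marker class, and CPM were taken over all UMIs of a sum. In R 4.3.3, edgeR 4.0.16 was fitted with TMM, filterByExpr and quasi-likelihood tests, group as the term for treatments and liver as a block between classes, adjusted over all genes tested at 0.05. DESeq2 1.42.0 was an alternative. Python 3.11.15 with numpy 2.4.6, pandas 2.3.3 and scipy 1.17.1 made the sums. Simulated data with known changes were also run through the fits. The changed genes were drawn from well-counted ones, so the effect of the low-count filter on sparse genes was not covered. The 10 genes, the gene lists, the markers and the tests were chosen with earlier results of these data known. The named genes were the 10 members, the 2 smallest-p genes of each other list, and the 5 genes most correlated with the members' sum; the ratio of H2-D1 to H2-K1 was added after its values were seen. Alternatives changed the scaling, tool, filters, marker rule, block or livers used. The p-values of the treatment tests measure the spread between mice. Those of tests with the liver as a block, and of the ratio, measure the spread over livers of the differences between classes. Doublets were not removed.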

Additional observations from a re-analysis of the deposited data

How the results depend on the processing

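Of 1630 recomputed changes of the named genes, 1526 kept their direction and their side of the threshold, 31 newly passed it, 34 no longer passed it and 39 changed sign. Treatment calls among the 10 genes were 0 under every setting run. Without the low-count filter the class fits tested 25959 genes and moved the median of all genes to -0.77 (macrophage) and -0.53 (endothelial), against hepatocyte barcodes. Under it B2m was at -0.64 and -0.50, H2-K1 at -0.46 and -0.36, Pdia3 at -0.11 and -0.062, Irf2 and Psme2 in endothelial barcodes at -0.24 and -0.38, and Canx in macrophage barcodes at -0.41. H2-T23, Psmb8, Psmb9 and Tapbp lost their endothelial call and Tapbp its macrophage call there, each still above 0, while H2-D1 kept both calls against hepatocyte barcodes and lost the one against endothelial barcodes. In macrophage against endothelial barcodes B2m was then at -0.14 and H2-K1 at -0.10, and the number of the 10 genes called was 1, as it also was with the rule of 5 UMIs over 3 markers. That rule put B2m at -0.019 and Psme2 at -0.036 in endothelial against hepatocyte barcodes and H2-K1 at -0.0081 in macrophage against endothelial barcodes. Psmb6 was at 0.13 in endothelial and 0.071 in macrophage barcodes with total UMIs alone and at 0.045 with 2 UMIs over 2 markers in endothelial barcodes. Without mice 2, 7 and 8, B2m was at -0.0066 in endothelial barcodes; H2-K1 was at -0.099 and Tap2 at 0.097 for AAVrh.10Null against PBS. Without mice 2 and 8 Tap2 was at 0.039, and with at least 500 genes H2-K1 was at -0.089. The ratio of H2-D1 to H2-K1 in macrophage barcodes was 2.17 on the log2 scale with the stricter marker rule (3 livers, exact permutation p = 0.25) and 1.73 without mice 2, 7 and 8 (4 livers, exact permutation p = 0.125), the smallest p those numbers allow.

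Leaving out each mouse gave 3 (without mouse 1, when Psmb9 and Tapbp did not pass the filter) to 7 genes called in endothelial against hepatocyte barcodes and 1 (without mouse 3) to 2 in macrophage against endothelial barcodes. The macrophage ratio ranged over 1.70 to 1.92, with an exact permutation p of 0.0625, the smallest possible, where 5 livers remained. For AAVrh.10Null against PBS the ranges were -0.014 to 0.63 for H2-K1, -0.79 to 0.0093 for H2-T23, -0.51 to 0.28 for Tap1, -0.44 to 0.098 for Tapbp and -1.72 to 0.038 for Cxcl9. For AAVrh.10mCherry against PBS they were -0.60 to 0.043 for H2-K1, -0.65 to 0.14 for Tap1 and -1.09 to 0.67 for Cxcl9. In macrophage against endothelial barcodes they were -0.0087 to 0.13 for B2m and -0.044 to 0.43 for Tapbp, and for Psmb6 -0.27 to 0.17 in macrophage and -0.20 to 0.078 in endothelial against hepatocyte barcodes. Whole-liver calls over all genes for AAVrh.10Null against PBS were 1, but 58 with DESeq2, 306 without the filter and 47 with at least 500 genes, and without the filter 102 for AAVrh.10mCherry against PBS (0 with it) and 151 for AAVrh.10mCherry against AAVrh.10Null (3 with it). The cause was not tested. No pairing of mice between treatments was used, because the labels name no pairs or shared processing sets. Without the liver block 5, 5 and 2 of the genes were called for macrophage against hepatocyte, endothelial against hepatocyte and macrophage against endothelial barcodes. Leaving out mice 2, 7 and 8 in the class comparisons, and all values of the ratio, were chosen after seeing the data. The macrophage treatment comparisons under the stricter rule could not be fitted. Mouse 7 limits the PBS values: a gene under 10.3 CPM there is below its floor.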
